A study of Mus musculus with 12 samples.

Results

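The CCAAT/enhancer-binding proteins (C/EBPs) are transcription factors that drive fat cell formation and the acute-phase response, and here 4 of their genes were followed together with 4 adipocyte genes in a mineralizing bone cell line. The genes were Cebpa, Cebpb, Cebpd, Cebpg, Pparg, Fabp4, Adipoq and Cd36, taken by symbol, 8 of the 56691 genes in the count table. The cells were MC3T3-E1, a wild-type mouse calvarial pre-osteoblast line. All groups, control included, were differentiated for 28 days in osteogenic medium. It held ascorbic acid at 50 µg/ml, dexamethasone at 0.1 µM and, as a source of phosphate, beta-glycerophosphate (BGP) at 10 mM. Treatment began on day 27 and lasted 24 h. The groups were 25-hydroxyvitamin D (25(OH)D, the circulating vitamin D metabolite) at 100 µM, the same 25(OH)D with a further 4 mM BGP, the same 25(OH)D with 100 µM ZK191784, and an untreated control for which the labels name no vehicle. Each group had 3 libraries. The doses are as labelled, and the 25(OH)D unit could not be checked. No group received ZK191784 or the further BGP without 25(OH)D. Whether the replicates of a group came from separate cultures is not stated, and p-values cover the spread among these libraries alone.

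C/EBP proteins pair through a leucine zipper and bind DNA as dimers. In preadipocytes, C/EBPβ and C/EBPδ appear early after hormonal induction and switch on Pparg and Cebpa, whose products then maintain each other and activate genes of the mature fat cell such as Fabp4, Adipoq and Cd36. Dexamethasone, present in all groups here, is a classical inducer of Cebpd. Osteoblasts and adipocytes descend from common mesenchymal progenitors, and C/EBPβ is known in bone cells as a partner of RUNX2 and as a gene that vitamin D hormone induces.

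The library totals lay between 3318723 and 5170980 counts, from a method that reads the 3' end of messenger RNA. Of 14394 genes that passed a filter on low counts, 1250 were called in 25(OH)D against control at an adjusted p under 0.05. Libraries also differed within each group in the log2 ratio of ribosomal protein gene counts to counts of Gm-numbered genes and pseudogenes. This ratio spanned −1.67 to −0.41 in the 25(OH)D libraries, −1.58 to −0.41 in the BGP libraries, −1.51 to −0.75 in the ZK191784 libraries and −1.70 to −0.55 in control. All 10 osteoblast markers passed the filter, and their summed level was 21392 to 24181 CPM (counts scaled to library size) with 25(OH)D, 18034 to 21481 with BGP, 63727 to 74649 with ZK191784 and 125001 to 139256 in control. Such a sum weighs each marker by its level, so it does not show how single osteoblast markers moved. Of 10 mature adipocyte markers, which include 3 of the genes followed, 2 passed the filter and Adig had 0 counts in all libraries. Their summed level was 8.45 to 28.1 CPM with 25(OH)D, 8.13 to 18.2 with BGP, 8.20 to 13.5 with ZK191784 and 8.63 to 9.99 in control. The sum mixes opposite movements of the 2 markers that passed. Lpl had 164 counts over the 25(OH)D libraries and 1 in control, while Fabp4 had 10 and 76.

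Promoter sequences are shown for Cebpb, the gene whose level moved most firmly, for Cebpa, its relative that no comparison called, and for C3, a complement gene with known C/EBP sites whose values are given further on. They cover the 250 bases before the annotated start, 5′ to 3′ on the gene's strand, from RefSeq on GRCm38.p6, where an entry was found for 6 of the 8 genes (all but Cebpd and Fabp4). Motifs were searched on both strands. The C/EBP-type site was spelled TTGCNNAA. For the cyclic AMP response element, the site of CREB-family zipper proteins, the core letters TGACG were used. The TATA box, which positions the polymerase in some promoters, was spelled TATAAA. No matches of different motifs overlapped in the sequences shown. Capitals mark every match, and a match on the other strand reads as its reverse complement. The Cebpb window lies at chr2:167688665-167688914 (+), the Cebpa window at chr7:35119043-35119292 (+) and the C3 window at chr17:57228137-57228386 (−).
Cebpb: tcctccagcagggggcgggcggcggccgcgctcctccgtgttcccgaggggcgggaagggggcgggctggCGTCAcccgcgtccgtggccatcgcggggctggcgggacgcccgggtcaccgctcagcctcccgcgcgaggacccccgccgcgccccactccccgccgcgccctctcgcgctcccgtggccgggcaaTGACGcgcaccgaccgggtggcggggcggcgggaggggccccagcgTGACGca
Cebpa: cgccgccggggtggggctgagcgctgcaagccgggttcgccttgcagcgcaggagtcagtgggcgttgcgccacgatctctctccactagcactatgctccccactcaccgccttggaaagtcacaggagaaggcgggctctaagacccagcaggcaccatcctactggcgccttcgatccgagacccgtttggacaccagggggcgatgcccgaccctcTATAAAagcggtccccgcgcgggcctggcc
C3: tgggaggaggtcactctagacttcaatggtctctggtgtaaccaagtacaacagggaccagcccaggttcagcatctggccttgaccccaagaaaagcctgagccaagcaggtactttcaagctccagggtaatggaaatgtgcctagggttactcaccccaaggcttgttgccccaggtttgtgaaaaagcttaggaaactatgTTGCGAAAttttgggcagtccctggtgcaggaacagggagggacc
The Cebpb window held TGACG 3 times, at 180 to 176 bases before the start on the minus strand relative to the gene and at 53 to 49 and 7 to 3 bases before it on the gene's own strand. The Cebpa window held 1 TATAAA at 30 to 25 bases before the start. The C3 window held 1 TTGCNNAA at 45 to 38 bases before the start. Among the 6 genes with an entry, TTGCNNAA was found only for Pparg, in 1 of its 3 promoters (not shown). It stood there at 215 to 208 and at 16 to 9 bases before the start. Among 32851 promoter windows of this length, TTGCNNAA was found in 9.56%, TGACG in 17.8% and TATAAA in 12.4%. These matches describe the letters only, and no binding was measured.

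Cebpb, which encodes C/EBPβ, was higher in every treated group than in control, and its level was highest with 25(OH)D alone. It had 1565, 1620 and 1297 CPM in the 25(OH)D libraries, 1084, 1275 and 1231 CPM with BGP, 764, 684 and 640 CPM with ZK191784, and 405, 450 and 462 CPM in control (with edgeR's TMM scaling). The 4 groups stood in this order with no overlap between any neighbours. The means were 1494 ± 172 CPM with 25(OH)D, 1197 ± 100.1 CPM with BGP, 696 ± 62.8 CPM with ZK191784 and 439 ± 29.9 CPM in control (SD, n = 3 each).

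Cebpb rose 3.40-fold in 25(OH)D against control, a log2 fold change of 1.77 ± 0.14 (SE, quasi-likelihood test in edgeR, adjusted p = 4.68e-06). Only 47 of the 14394 genes had a smaller p in this comparison. Adding ZK191784 to 25(OH)D brought Cebpb 2.15-fold below 25(OH)D alone, a log2 fold change of −1.10 ± 0.13 (adjusted p = 0.000523). With BGP added, Cebpb was 2.72-fold above control (log2 1.45 ± 0.14, adjusted p = 2.47e-05). These 3 calls held under every alternative that was tried.

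Between 25(OH)D with ZK191784 and control, Cebpb rose 1.58-fold (log2 0.66 ± 0.13, adjusted p = 0.0421). That call was lost under 8 of 14 alternatives. It was lost when any of the ZK191784 libraries or control replicate 1 or 2 was left out (adjusted p from 0.108 to 0.259). It was also lost when the 2 groups were fitted alone (adjusted p = 0.160), with a replicate block (0.140) or without the highest-ratio library of each group (0.104). The fold change stayed between 0.60 and 0.73 on the log2 scale. Between 25(OH)D with BGP and 25(OH)D alone the log2 fold change was −0.32 ± 0.13, with the BGP libraries all lower. It was not called, with an adjusted p of 1.00 and an unadjusted p of 0.0323 by edgeR. The comparisons with 25(OH)D and with control share libraries, so their values are not independent of each other.

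**Figure D1:**
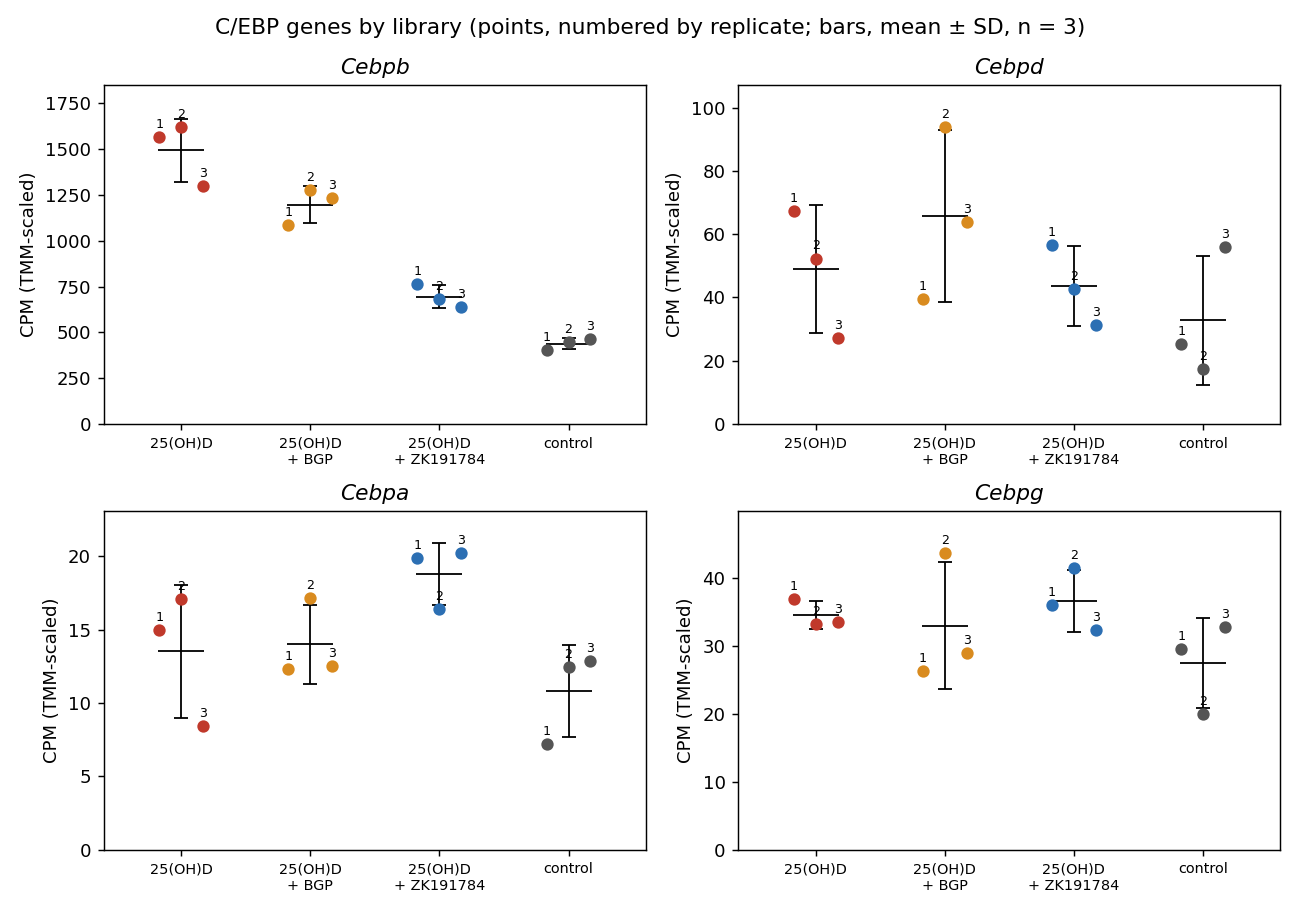
Levels of the 4 C/EBP genes in CPM (vertical axes, each from 0) in each library, with points numbered by replicate and bars for mean ± SD (n = 3) in the 4 groups. In the Cebpb panel the 25(OH)D libraries sit highest (1297 to 1620 CPM) and control lowest (405 to 462 CPM), while in the Cebpd and Cebpa panels the 25(OH)D and control libraries overlap.

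Cebpd encodes C/EBPδ, the partner of C/EBPβ at the start of fat cell formation and in the acute-phase response. It had 67.4, 52.3 and 27.2 CPM with 25(OH)D, 39.6, 93.8 and 63.8 CPM with BGP, 56.5, 42.7 and 31.3 CPM with ZK191784, and 25.2, 17.3 and 55.9 CPM in control. The spread within each group was as wide as the distance between groups, and all groups overlapped. The log2 fold change of 25(OH)D over control was 0.58 ± 0.45 (SE, adjusted p = 0.547 by edgeR), with a 95% interval from −0.41 to 1.57. It was −0.17 ± 0.45 for ZK191784 added to 25(OH)D (adjusted p = 0.972) and 0.43 ± 0.45 for BGP added to 25(OH)D (adjusted p = 1.00).

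Within every group, Cebpd was highest in the library with the highest ratio of ribosomal protein to Gm-numbered and pseudogene counts and lowest in the library with the lowest ratio, 4 of 4 groups each way. For Cebpb the highest library matched in 3 of 4 groups and the lowest in 3 of 4. Both matched together in the BGP and the ZK191784 libraries only, 2 of 4 groups. For Cebpd in 25(OH)D with BGP against control the log2 fold change was 1.01 ± 0.45 (adjusted p = 0.255 by edgeR). With that ratio as a covariate it was 0.78 ± 0.15 and was called (adjusted p = 0.000137), and it was also called without control replicate 3 (adjusted p = 0.0346). In the covariate fit Cebpd was called in no other comparison. The part of this library difference in the Cebpd values was not tested further.

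**Figure D2:**
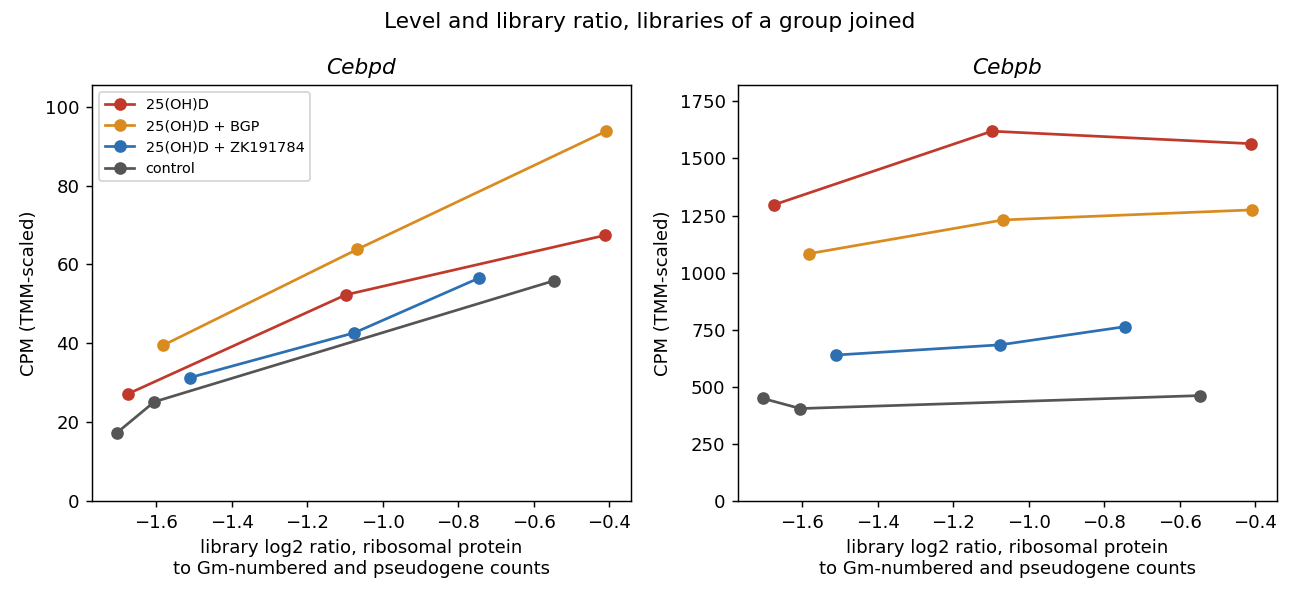
Level of Cebpd and Cebpb in CPM (vertical axes) against the library's log2 ratio of ribosomal protein gene counts to Gm-numbered and pseudogene counts (horizontal axes), with the 3 libraries of a group joined by a line. The Cebpd lines climb to the right in all 4 groups, to 93.8 CPM with BGP, while the Cebpb lines stay apart by group across the whole axis.

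Cebpa encodes C/EBPα, which takes over from C/EBPβ as fat cells mature. It had 14.98, 17.1 and 8.45 CPM with 25(OH)D, 12.3, 17.1 and 12.5 CPM with BGP, 19.9, 16.4 and 20.2 CPM with ZK191784, and 7.19, 12.4 and 12.8 CPM in control. The ZK191784 libraries were the highest as a group and lay clear of control, while the 25(OH)D and BGP libraries overlapped control. Its log2 fold change in 25(OH)D against control was 0.32 ± 0.31 (SE, adjusted p = 0.630 by edgeR, 95% interval −0.35 to 0.99). For 25(OH)D with ZK191784 against control it was 0.80 ± 0.30, with an unadjusted p of 0.0220 and an adjusted p of 0.539. Against 25(OH)D alone the ZK191784 value was 0.48 ± 0.30 (adjusted p = 0.683).

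Cebpg encodes C/EBPγ, a short family member that lacks an activation domain of its own and dimerizes with other leucine zipper proteins. It had 36.9, 33.3 and 33.5 CPM with 25(OH)D, 26.4, 43.7 and 28.9 CPM with BGP, 36.0, 41.5 and 32.4 CPM with ZK191784, and 29.5, 20.0 and 32.8 CPM in control. The 25(OH)D libraries all lay above control, by a narrow margin over control replicate 3, and the other groups overlapped. Its log2 fold changes were 0.33 ± 0.23 in 25(OH)D against control (adjusted p = 0.498 by edgeR, 95% interval −0.18 to 0.84) and 0.08 ± 0.23 for ZK191784 added to 25(OH)D (adjusted p = 0.973). No comparison called it.

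The balance between the C/EBP genes was also measured within libraries, where scaling plays no part. The log2 ratio of Cebpb to Cebpa counts was 6.69, 6.55 and 7.24 in the 25(OH)D libraries, 6.44, 6.21 and 6.61 with BGP, 5.26, 5.37 and 4.98 with ZK191784, and 5.79, 5.17 and 5.16 in control. The 25(OH)D and BGP libraries lay above all others, and the ZK191784 libraries overlapped control. The mean of 25(OH)D exceeded that of control by 1.46, and the mean of ZK191784 lay 1.63 below that of 25(OH)D (exact two-sided permutation p = 0.1 each, the smallest that 3 against 3 libraries allow, adjusted p = 0.214 over 15 such ratios). Against Cebpg the ratio of Cebpb differed by 1.40 between 25(OH)D and control and by −1.18 between ZK191784 and 25(OH)D (exact permutation p = 0.1 each). Against Cebpd the difference was 1.10 between 25(OH)D and control, with overlapping libraries (exact permutation p = 0.2), and it was 0.669 without control replicate 3. Between ZK191784 and 25(OH)D it was −0.98, with no overlap (exact permutation p = 0.1). These are differences between groups in a ratio of counts, and they set no level of one gene above another.

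Pparg, the nuclear receptor that directs fat cell formation, was close to the limit of detection. It had 0, 3 and 1 counts with 25(OH)D, 1, 2 and 5 with BGP, 0, 4 and 10 with ZK191784, and 7, 4 and 0 in control. All 4 groups overlapped, and 3 of them held a library with 0 counts. In each of these 3 groups it was the library with the highest library ratio, whose part in the counts was not tested. Over the summed counts, 25(OH)D had 0.409 times the control level (95% exact binomial interval 0.0949 to 1.379), and ZK191784 had 3.00 times the 25(OH)D level (0.941 to 12.5). The exact permutation p was 0.5 for each. Such intervals cover counting error only and not the spread between libraries.

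Fabp4 encodes the fatty acid carrier of fat cells, a classical PPARγ target, and it was the adipocyte gene with the most counts. It had 8, 1 and 1 counts with 25(OH)D, 4, 3 and 4 with BGP, 32, 13 and 16 with ZK191784, and 22, 20 and 34 in control. The 25(OH)D and BGP libraries were low, the ZK191784 and control libraries were high, and no library of the low groups reached a library of the high groups. The means were 0.882 ± 1.09 CPM with 25(OH)D, 0.845 ± 0.248 CPM with BGP, 4.39 ± 1.88 CPM with ZK191784 and 5.86 ± 2.00 CPM in control (SD, n = 3 each). It passed the filter through the control and ZK191784 libraries.

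Fabp4 fell 6.57-fold in 25(OH)D against control (log2 −2.72 ± 0.67, adjusted p = 0.0222 by edgeR). With BGP it lay 6.85-fold below control (log2 −2.78 ± 0.66, adjusted p = 0.0187). Without 25(OH)D replicate 2 or 3 or control replicate 3 the first of these calls was lost (adjusted p from 0.0615 to 0.105), as it was with the 2 groups fitted alone (0.0883), and without 25(OH)D replicate 1 the change was −4.39 on the log2 scale. The BGP call was lost without BGP replicate 2 or 3 or control replicate 3 (adjusted p from 0.0574 to 0.0860).

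With ZK191784 added, Fabp4 had a log2 fold change of 2.31 ± 0.67 over 25(OH)D alone, and the adjusted p of 0.0962 missed the threshold in edgeR. Groups did not overlap, and the summed counts were 61 with ZK191784 and 10 with 25(OH)D, a ratio of 5.22 (95% exact binomial interval 2.66 to 11.4, exact permutation p = 0.1). Alternatives fell on both sides of the threshold, with adjusted p from 0.00229 to 0.351, and DESeq2 called it (adjusted p = 0.0412). Without 25(OH)D replicate 1, which held 8 of the 10 counts, the value was 3.98 (adjusted p = 0.0120). Against control, the ZK191784 value was −0.41 ± 0.55 (adjusted p = 0.998). In bulk RNA, fewer cells of a type and less RNA per cell cannot be told apart.

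Adipoq encodes adiponectin, a hormone secreted by mature fat cells. It had 7, 1 and 0 counts with 25(OH)D, 3, 6 and 2 with BGP, 0, 1 and 0 with ZK191784, and 1, 0 and 0 in control. All 3 BGP libraries lay above control, and 1 of the 3 25(OH)D libraries held 7 of that group's 8 counts. The ratio to control was 8.99 with 25(OH)D (95% exact binomial interval 1.21 to 399, exact permutation p = 0.4) and 10.8 with BGP (1.56 to 463, exact permutation p = 0.1), each resting on 1 control count. The 2 libraries with most Adipoq counts, 25(OH)D replicate 1 and BGP replicate 2, were also those with the highest library ratio of their groups, whose part in the counts was not tested.

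Cd36 encodes a fatty acid uptake receptor of fat cells, macrophages and endothelium. It had 0, 3 and 2 counts with 25(OH)D, 1, 0 and 2 with BGP, 4, 1 and 7 with ZK191784, and 7, 2 and 1 in control. Every group overlapped every other. The libraries with 0 counts, 25(OH)D replicate 1 and BGP replicate 2, had the highest library ratio of their groups, whose part was not tested. The summed ratio was 0.562 for 25(OH)D to control (95% exact binomial interval 0.151 to 1.80, exact permutation p = 0.7) and 2.06 for ZK191784 to 25(OH)D (0.674 to 7.45, exact permutation p = 0.4). Among macrophage markers 7 of 10 passed the filter and C1qb was at 0, with summed levels of 234 to 425 CPM with 25(OH)D, 230 to 454 with BGP, 254 to 458 with ZK191784 and 248 to 533 in control. Among endothelial markers 3 of 10 passed and Cdh5 was at 0, with 20.6 to 52.8 CPM in sum with 25(OH)D, 28.0 to 61.1 with BGP, 31.5 to 69.1 with ZK191784 and 31.6 to 76.5 in control. Over all libraries, markers of skeletal muscle summed to 44.3 to 148 CPM and those of chondrocytes to 87.8 to 359 CPM. The cultures were of the MC3T3-E1 line alone, and these sums do not show that macrophages or endothelium were present. The source of the Cd36 counts was not tested. Pparg, Adipoq and Cd36 failed the filter, and without a filter none of them was called in any comparison.

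**Figure D3:**
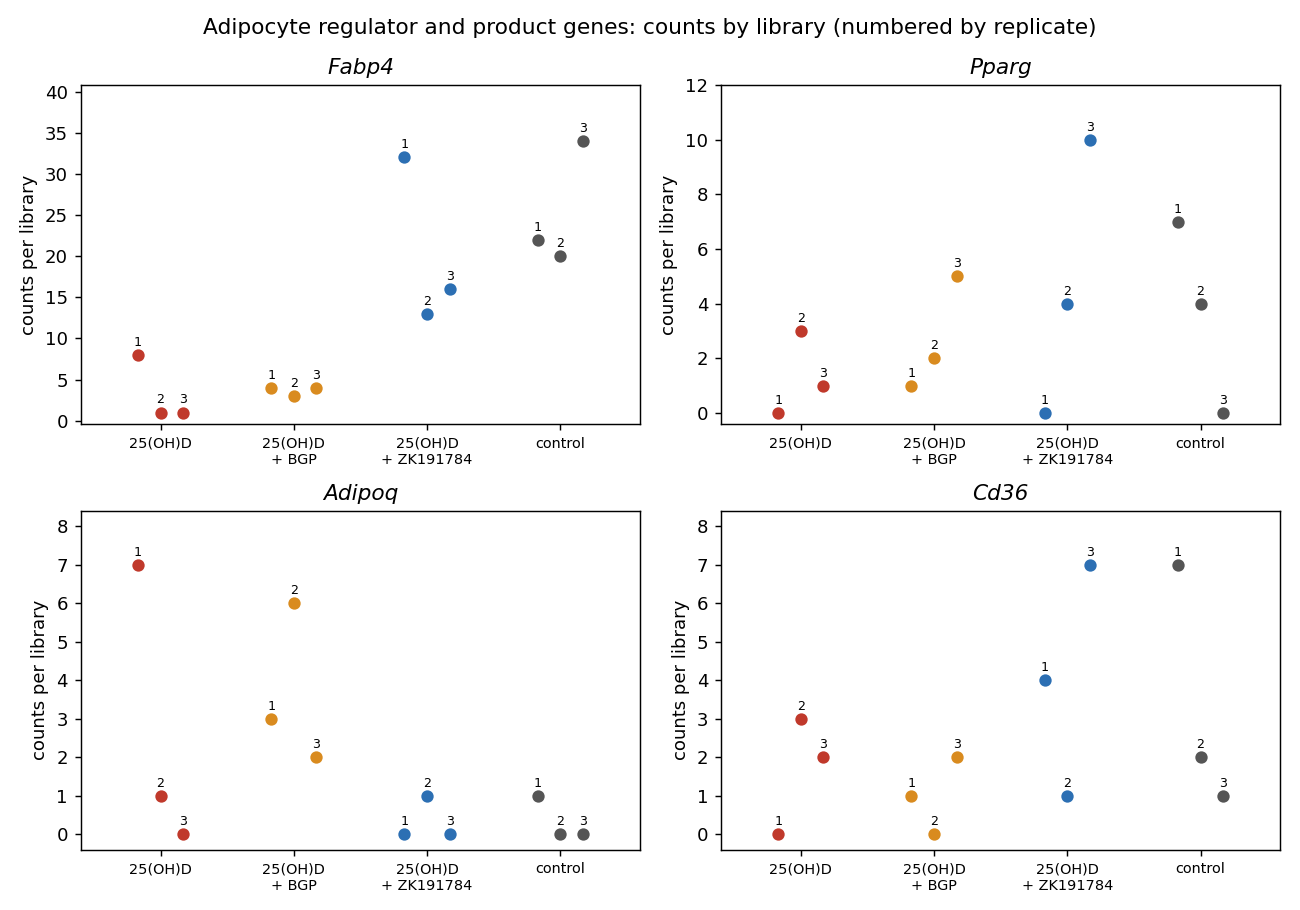
Raw counts per library (vertical axes) of Fabp4, Pparg, Adipoq and Cd36 in the 4 groups, points numbered by replicate. The Fabp4 panel shows 1 to 8 counts in the 25(OH)D and BGP libraries, below the 13 to 34 counts of the ZK191784 and control libraries, while the Pparg and Cd36 panels overlap throughout.

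Of the 8 genes, 5 were tested. With 25(OH)D against control 1 rose, against 4.76% of all genes tested, and 1 fell, against 3.93% of all genes. The median log2 fold change of all genes was −0.05. For ZK191784 added to 25(OH)D 0 rose, against 1.42% of all genes, and 1 fell, against 2.11%. For 25(OH)D with BGP against control 1 rose, against 3.9% of all genes, and 1 fell, against 4.35%. For 25(OH)D with ZK191784 against control 1 rose, against 0.507% of all genes, and 0 fell, against 0.215%. For BGP added to 25(OH)D 0 of the 5 were called by edgeR, against 0% of all genes, with 268 genes at an unadjusted p under 0.05, of which Cebpb was 1, and DESeq2 called 0 of the 5 as well. Libraries of the groups did not overlap for 3 of the 5 in 25(OH)D against control (Cebpb, Cebpg and Fabp4), where 21.9% of all genes did not. The share for ZK191784 against 25(OH)D was 2 of 5 (Cebpb and Fabp4), against 17.6% of all genes, and for BGP against 25(OH)D 1 of 5 (Cebpb), against 6.04%. Against control it was 2 of 5 with BGP (Cebpb and Fabp4), against 21% of all genes, and 2 of 5 with ZK191784 (Cebpb and Cebpa), against 11.8%.

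**Figure D4:**
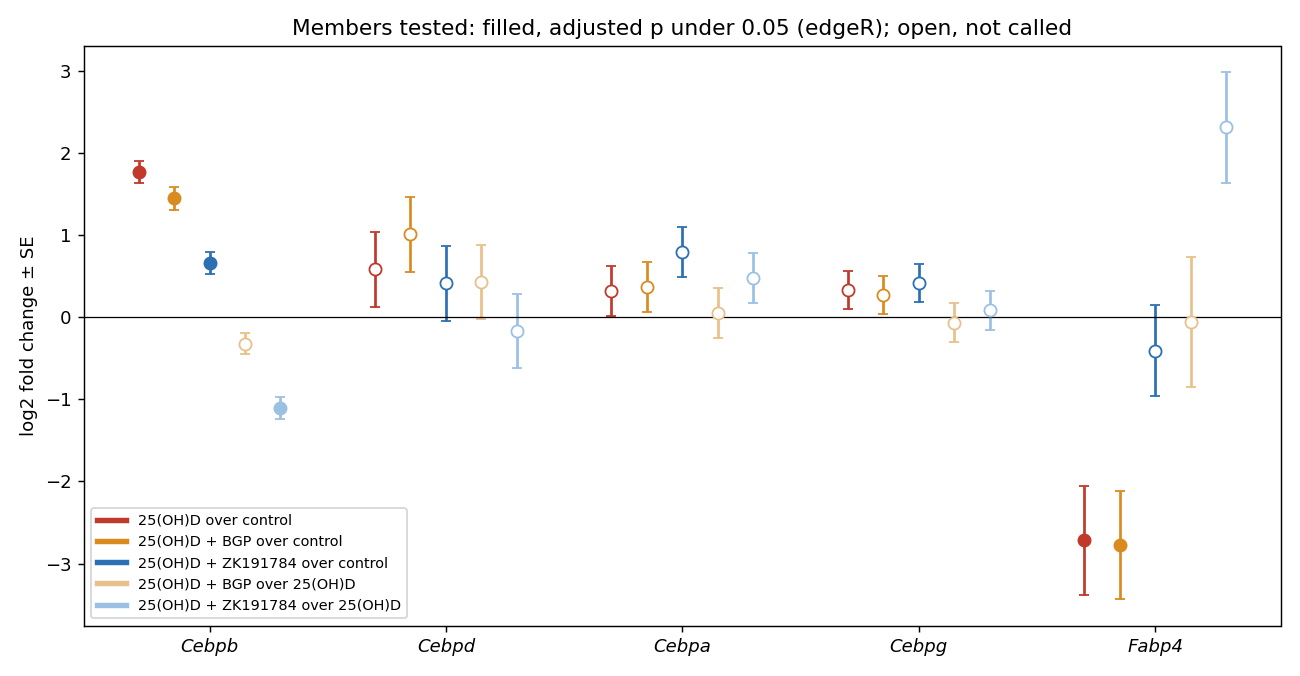
Fitted log2 fold changes ± SE (vertical axis) of the 5 genes tested, with a colour for each of the 5 comparisons, filled where the adjusted p was under 0.05 and open otherwise. Cebpb runs from 1.77 in 25(OH)D over control to −1.10 in ZK191784 over 25(OH)D, and Fabp4 is the gene with values below −2.

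Genes with known C/EBP sites, most of them acute-phase and inflammatory genes, were examined beside Cebpb. Of 20 listed, 13 passed the filter, and in 25(OH)D against control 8 rose, where 4.76% of all genes did, and 0 fell, with a median log2 fold change of 2.75 against −0.05 over all genes. The list was drawn up with the rise of several of its genes in these libraries known, so its count is no independent evidence of direction. The 8 risers include Orm1, Orm2 and Orm3, near-identical genes among which reads may be split. Genes of the list without a call went both ways in summed counts of 25(OH)D over control. Ptx3 had a ratio of 2.28 and Lbp of 2.15, while Ptgs2 had 0.937, Igf1 0.851 and Il1rn 0.463. Lcn2, Saa3, Il6, Ccl2 and Cxcl1 had at most 10 counts in either group. C3, the central complement component, had 593, 851 and 806 CPM with 25(OH)D, 433, 390 and 451 CPM with BGP, 2.66, 7.47 and 8.26 CPM with ZK191784, and 1.20, 1.48 and 0.239 CPM in control. The ZK191784 libraries lay above control but far below the other treated libraries. Its log2 fold changes were 9.53 ± 0.49 in 25(OH)D over control (adjusted p = 1.80e-07 by edgeR) and −6.94 ± 0.41 for ZK191784 added to 25(OH)D (adjusted p = 2.64e-06). C3 had 13 counts over all control libraries and passed the filter through the treated ones.

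Hp, the haemoglobin-binding plasma protein haptoglobin, had 2534, 3253 and 3496 CPM with 25(OH)D, 2994, 3042 and 3088 CPM with BGP, 1057, 982 and 986 CPM with ZK191784, and 285, 442 and 277 CPM in control. Its groups stood apart except for 25(OH)D and BGP, and its log2 fold change over control was 3.21 ± 0.20 with 25(OH)D (adjusted p = 6.31e-07 by edgeR). Orm3, an acute-phase orosomucoid gene, rose by 8.21 ± 0.34 on the log2 scale in 25(OH)D against control (adjusted p = 3.60e-08), though reads may be split among the near-identical Orm genes. Orm3 had 21 counts over all control libraries and 5673 with 25(OH)D, and it passed the filter through the treated libraries. When ZK191784 was added to 25(OH)D, 7 of the 13 fell, where 2.11% of all genes did, and 0 rose, where 1.42% did, with a median of −1.59 against 0.02 over all genes. Scd1, a fatty acid desaturase, fell by 1.69 on the log2 scale in that comparison and Orm3 fell by 2.90. When BGP was added to 25(OH)D, 0 of the 13 were called, against 0% of all genes. In 25(OH)D with ZK191784 against control 6 rose, where 0.507% of all genes did, and 0 fell, where 0.215% did.

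**Figure D5:**
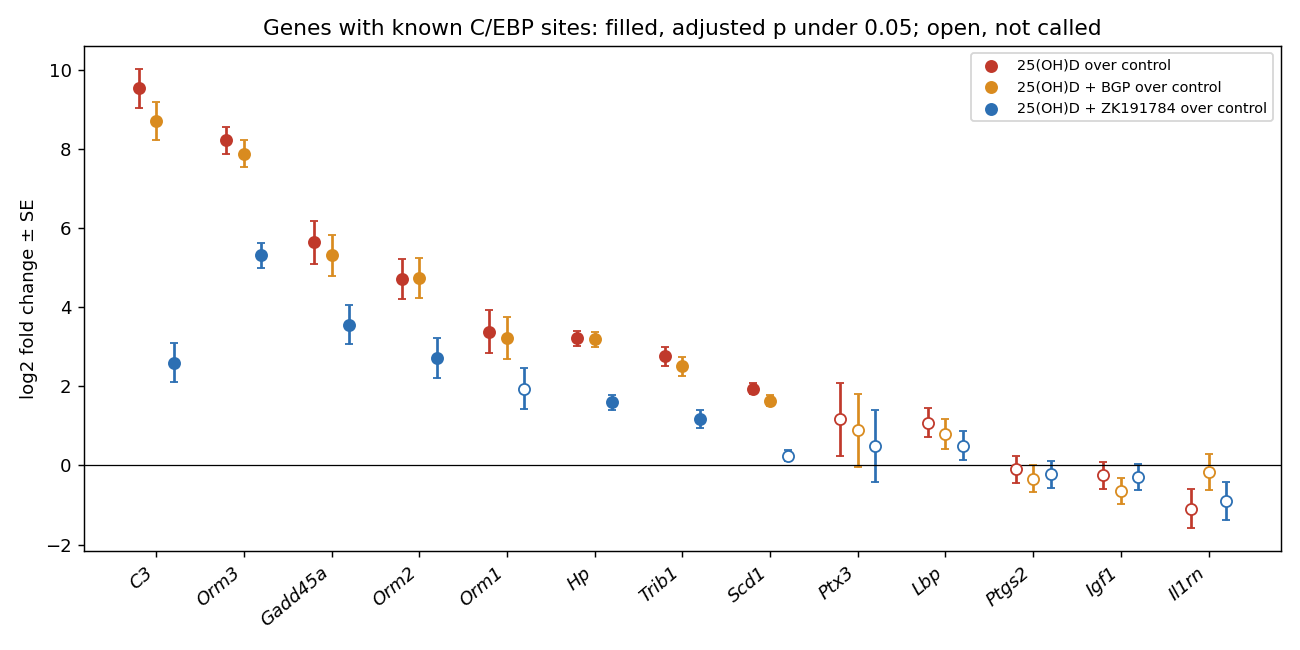
Fitted log2 fold changes over control ± SE (vertical axis) of the 13 tested genes with known C/EBP sites, for 25(OH)D, 25(OH)D with BGP and 25(OH)D with ZK191784, filled where the adjusted p was under 0.05 and open otherwise. The ZK191784 value lies below the 25(OH)D value for the 8 genes that rose with 25(OH)D, C3 showing the widest gap at 9.53 and 2.59.

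Of 31 listed products and lipid droplet genes of the mature fat cell, 18 were tested. With 25(OH)D against control 4 rose, where 4.76% of all genes did, and 0 fell, where 3.93% did. They were Dgat1, which makes triglyceride, Scd1, Lpl, the lipoprotein lipase, and Plin3, a lipid droplet coat protein found in many cell types. Dgat1 had 882, 1024 and 945 CPM with 25(OH)D, 808, 907 and 795 CPM with BGP, 248, 243 and 272 CPM with ZK191784, and 87.0, 63.4 and 60.7 CPM in control. All groups but 25(OH)D and BGP stood apart, and the log2 fold change over control with 25(OH)D was 3.75 ± 0.17 (adjusted p = 4.50e-08 by edgeR). Lpl had 164 counts over the 25(OH)D libraries, 121 with BGP, 31 with ZK191784 and 1 in control, a ratio of 25(OH)D to control of 184 (95% exact binomial interval 32.6 to 7323). Lpl passed the filter through the treated libraries. With ZK191784 added to 25(OH)D, 0 rose, where 1.42% of all genes did, and the same 4 genes fell, where 2.11% did, by 0.66 to 2.64 on the log2 scale. Dgat1 and Scd1 were called there under every alternative, but the count was 2 without 25(OH)D replicate 1 or 2 or ZK191784 replicate 2 or 3 and with those 2 groups alone, where Lpl lost its call (adjusted p up to 0.155). Adipocyte-restricted genes of this list stayed rare. Lep, the leptin gene, summed to 5 counts with 25(OH)D, 9 with BGP, 18 with ZK191784 and 11 in control. Plin1, a fat cell droplet coat gene, summed to 4 counts with 25(OH)D, 8 with BGP, 9 with ZK191784 and 6 in control.

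Among PPAR target genes 12 of 20 were tested, and in 25(OH)D against control 3 rose, where 4.76% of all genes did, and 1 fell, where 3.93% did. Lpl was the first of the risers by size, and Cpt1a, the mitochondrial fatty acid importer, rose by 1.12 ± 0.18 on the log2 scale (adjusted p = 0.00121 by edgeR). Fabp5, a fatty acid carrier related to Fabp4, fell by 2.99 ± 0.84 (adjusted p = 0.0466), a call lost under 9 of 14 alternatives, among them leaving out any single library (adjusted p up to 0.156). Fabp5 summed to 9 counts with 25(OH)D, 7 with BGP, 37 with ZK191784 and 82 in control. It did not pass the filter through the 25(OH)D or BGP libraries, only through those where it was high. With ZK191784 added to 25(OH)D, 0 of the 12 rose, where 1.42% of all genes did, and 1, Lpl, fell, where 2.11% did.

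Of 23 listed adipogenic transcription factors other than the 8 genes, 16 were tested. With 25(OH)D against control 0 rose, where 4.76% of all genes did, and 1 fell, where 3.93% did, a count near that of all genes. That gene was Klf4, a zinc finger factor known to act upstream of Cebpb in mouse preadipocytes. It had 76.0, 66.3 and 82.1 CPM with 25(OH)D, 88.1, 67.9 and 80.0 CPM with BGP, 136, 138 and 160 CPM with ZK191784, and 642, 508 and 447 CPM in control. Control lay above every treated library, and the log2 fold change with 25(OH)D was −2.83 ± 0.18 (adjusted p = 7.17e-07 by edgeR). ZK191784 added to 25(OH)D raised Klf4 by 0.95 ± 0.17 (adjusted p = 0.00598). It was the 1 riser of the 16, where 1.42% of all genes rose, and 0 fell, where 2.11% did. Rxra, which encodes the dimer partner of PPARγ and of the vitamin D receptor, had a log2 fold change of 0.12 in 25(OH)D against control and was not called.

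Among 21 genes known to hold back fat cell formation, 19 were tested, and in 25(OH)D against control 3 rose, where 4.76% of all genes did, and 1 fell, where 3.93% did. Tcf7l2, a transcription factor of the Wnt pathway, rose by 2.07 ± 0.24 on the log2 scale (adjusted p = 0.000129 by edgeR). Ncor1, a nuclear receptor corepressor, rose by 0.81 ± 0.17 and Nr2f2 (COUP-TFII) by 1.19 ± 0.26. The gene that fell was Zfp521, a zinc finger protein, by 0.83 ± 0.21 (adjusted p = 0.0233). Ncor1 lost its call without control replicate 1 (and with the 2 groups alone) and Nr2f2 without 25(OH)D replicate 1 or control replicate 1 or 2 (likewise), with adjusted p up to 0.0548 and 0.0681. With ZK191784 added to 25(OH)D, 0 of the 19 rose, where 1.42% of all genes did, and 1 fell, where 2.11% did. It was Tcf7l2, which fell by 1.25 ± 0.24 (adjusted p = 0.00966), a call lost without ZK191784 replicate 2 or 3 (adjusted p up to 0.0574). In each of these 4 lists, edgeR called 0 genes for BGP added to 25(OH)D, against 0% of all genes.

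The genes most like each of the 4 C/EBP genes were found by Pearson correlation of log2 CPM over the 12 libraries, among 7893 genes with a mean of at least 10 CPM. For Cebpb they were Itga1, a collagen-binding integrin subunit (r = 0.995), Gdpd1 (0.994) and Cxcl12, a chemokine made by marrow stromal cells (0.992). Itga1 had log2 fold changes of 2.77 ± 0.15 in 25(OH)D over control and −1.68 ± 0.14 for ZK191784 added to 25(OH)D. For Cebpd they were Arpc3 (0.969), U2surp (0.967) and Fbxw17 (0.966), none of them called in any comparison. For Cebpa they were Akap7 (0.948), Hmgxb4 (0.886) and Clmp (0.863), and for Cebpg Hbs1l (0.936), Rab11fip2 (0.894) and Snx6 (0.891), also without a call. These values describe likeness over libraries that share groups and depth.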

How the data were processed

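RNA was extracted with TRIzol and libraries were made with QuantSeq, a 3' method, per the labels' protocols. The deposited values are raw counts per gene and library, made by the authors on the mm39 genome. The submitters' processing notes name STAR 2.7.9a, featureCounts, Subread 2.0.3 and DESeq2 1.38.2. Strand setting and annotation release: not given in the sources used here. Overlapping and antisense genes cannot be told apart. Genes numbered 56691, of which 20212 had 0 counts throughout. The 882 entries with a repeated symbol were kept apart.

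Genes passing filterByExpr (min.count 10, min.total.count 15), 14394 with 99.4% of the counts, were fitted with edgeR 4.0.16 in R 4.3.3 over all 12 libraries (TMM scaling, robust quasi-likelihood, 1 coefficient per group, no block). Genes were called at a Benjamini-Hochberg adjusted p under 0.05 over all of them. An SE here is the size of the log2 fold change over the root of its F statistic, an approximation. Summed counts of rare genes were compared by ratio with a 95% exact binomial interval, and single values by exact two-sided permutation. Ratios of C/EBP genes had 0.5 added to each count. The method was tested on simulated counts with planted changes. Over the comparisons it recovered 11.5% to 14.4% of 2-fold changes and 60.2% to 69% of 4-fold changes. These shares are over genes of all levels and give no power for a single gene. A gene that was not called may therefore still have changed by 2-fold, except where an approximate 95% interval given for it lies within 2-fold.

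The 8 genes and all gene lists were chosen with earlier results of these data known. Named beside them were up to 3 called genes with the smallest p per list in the comparisons with 25(OH)D, and the 3 genes most like each C/EBP gene. A gene that this rule names is not reported here. Plin3, Zfp521, Lep, Plin1, Rxra, Atf4, Ddit3, Cebpe, Adipor1 and Adipor2 were named after their values were seen. So were Orm1, Orm2, Ptx3, Lbp, Ptgs2, Igf1, Il1rn, Lcn2, Saa3, Il6, Ccl2 and Cxcl1. Alternatives were RLE scaling, DESeq2 1.42.0, no filter, a filter at 2 CPM in 3 libraries, a replicate block, the library ratio as a covariate, the 2 groups alone and each library left out. Leaving out the highest-ratio library of each group was chosen after seeing the data. Promoters are of GRCm38.p6 while the counts used mm39, so no coordinates were joined. Plots used Python 3.11.15 with matplotlib 3.10.9.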

Additional observations from a re-analysis of the deposited data

How the results depend on the processing

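The calls of Cebpb in 25(OH)D over control (log2 1.71 to 1.86), in ZK191784 over 25(OH)D (−1.20 to −1.03) and in BGP over control (1.39 to 1.51) held under all 14 alternatives. The ratios among C/EBP genes moved by less than the spread between replicates, but leaving out 1 of 3 libraries cannot move a mean by more. That yardstick therefore does not show whether the ratios are stable. Without single libraries, the ratio of Cebpb to Cebpd in 25(OH)D over control ran between 0.669 (without control replicate 3) and 1.49 (without control replicate 2). The ratios over control of Cebpb to Cebpa with ZK191784 (−0.28 to 0.041), of Cebpb to Cebpd with BGP (−0.081 to 0.744) and of Cebpb to Cebpd with ZK191784 (−0.31 to 0.51) changed sign. The number of genes called in 25(OH)D with ZK191784 over control, 104, became 220 without a filter, 56 with the replicate block, 670 with the library ratio as a covariate, 224 with DESeq2 and 42 with the 2 groups alone. In ZK191784 over 25(OH)D, 508 became 334 with the block and 1632 with the covariate. In 25(OH)D over control, 1250 became 2843 with the covariate and 763 with the 2 groups alone, in BGP over control 1187 became 2681 and 712, and in BGP over 25(OH)D 0 became 6 with the covariate. Leaving out 1 library gave 813 to 1266 genes in 25(OH)D over control, 794 to 1143 in BGP over control, 269 to 428 in ZK191784 over 25(OH)D, 34 to 119 in ZK191784 over control and 0 in BGP over 25(OH)D.

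Of the 8 genes, the number higher in ZK191784 over 25(OH)D became 1 without a filter, with the covariate, with DESeq2 and without the 4 highest-ratio libraries (25(OH)D and ZK191784 replicate 1, BGP replicate 2, control replicate 3), Fabp4 in each. The number higher in BGP over control became 2 with the covariate and without those 4 libraries, by Cebpd (adjusted p = 0.0289 in the second), and the number lower became 0 without them (Fabp4, 0.0569). The number lower in 25(OH)D over control became 0 with the 2 groups alone, and the number higher in ZK191784 over control became 0 with the block (Cebpb, adjusted p = 0.140), the 2 groups alone and without those 4 libraries (0.104). Leaving out 1 library, each of these numbers stayed within 0 to 1 or, for those higher in BGP over control, within 1 to 2. Changes of sign were all in values that were not called. Fabp4 in BGP over 25(OH)D ranged from −0.51 upward as single libraries were left out, and became 0.088 with the block, 1.61 without 25(OH)D replicate 1, 0.11 without BGP replicate 2 and 1.79 without the 4 libraries. Cebpd in ZK191784 over 25(OH)D became 0.13 without 25(OH)D replicate 1 and 0.019 without ZK191784 replicate 3, down to −0.46 without others. Cebpa in BGP over 25(OH)D, up to 0.26 without single libraries, became −0.20 without 25(OH)D replicate 3, −0.10 without BGP replicate 2 and −0.00742 without the 4 libraries. Cebpg in BGP over 25(OH)D, down to −0.31 without single libraries, became 0.071 without BGP replicate 1 and 0.023 without BGP replicate 3, and in ZK191784 over 25(OH)D it ran from −0.016 without ZK191784 replicate 2 to 0.16. The causes were not tested.

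The replicate numbers were not taken to pair libraries. Deviations of same-numbered libraries correlated at over 0.1 in 4 of 18 pairs, from −0.853 to 0.803. With 37 Pparg, 21 Adipoq and 30 Cd36 counts over all libraries, differences in these genes were not detectable at this depth unless large.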

Other observations

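Other leucine zipper genes have products that can pair with C/EBP proteins or bind related sites. Of 18 listed, 15 were tested. In 25(OH)D over control 0 rose, where 4.76% of all genes did, and 1 fell, where 3.93% did, counts near those of all genes. It was Tef, a PAR-family factor, which fell by 0.53 ± 0.14 on the log2 scale (adjusted p = 0.0278 by edgeR), a call lost under 9 of 14 alternatives. Atf4 and Ddit3 (CHOP), a pair of stress-response partners of C/EBPβ, had log2 fold changes of −0.40 and −0.09 in that comparison and were not called. With ZK191784 added to 25(OH)D, edgeR called 0 of the 15, where 1.42% of all genes rose and 2.11% fell. With BGP added it also called 0, against 0% of all genes. Cebpe, a myeloid family member, had 1 count with 25(OH)D and 8 with BGP over 3 libraries each.

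Partners of adiponectin and CD36 numbered 12, of which 9 were tested. Adipor1, an adiponectin receptor gene, had 90.9 ± 3.42 CPM with 25(OH)D against 80.0 ± 14.4 CPM in control (SD, n = 3 each), and Adipor2, the other, had 118 ± 37.4 CPM with 25(OH)D against 93.9 ± 31.1 CPM in control. Neither was called. In 25(OH)D over control 1 rose, Lpl, where 4.76% of all genes did, and 2 fell, where 3.93% did, Fabp5 and Thbs1, which encodes a ligand of CD36 and fell by 1.00 ± 0.28 on the log2 scale (adjusted p = 0.0486 by edgeR), a call lost under 8 of 14 alternatives. With ZK191784 added to 25(OH)D, 0 rose, where 1.42% of all genes did, and 1 fell, Lpl, where 2.11% did.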
